A study of Mus musculus with 14 samples.

Results

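Erythroblastic island macrophages were described by 10 genes that mark their identity or their attachment to erythroblasts: Vcam1, Itga4, Itgb1, Adgre1, Maf, Nr1h3, Il18, Igf1, Cd5l and Fcna. The genes were listed by symbol, and all 10 were found among the 32589 features of the sections from purchased mice and the 19465 features of the sections from a C1qa cross. Visium spatial transcriptomics was run on 14 formalin-fixed, paraffin-embedded (FFPE) mouse sections from 10 groups, to locate macrophages and erythroid cells in the organs that make blood. The purchased C57BL/6 wild-type mice gave 1 section each of fetal liver at embryonic day 13.5 (E13.5), fetal liver at E14.5, bone marrow at postnatal day 8 (P8), bone marrow at 89 weeks, bone marrow from a mouse 6 months old that was treated with 0.5 M EDTA for 5 days, and adult spleen. Crosses of C1qa heterozygous mice gave 2 sections a group: wild-type and C1qa knockout E14.5 fetal livers, each with numbers 2 and 4 that mark littermates, and wild-type and C1qa knockout spleens at 3 months, each numbered 1 and 2. The knockout is in every cell of the mouse, so macrophages and all other cells lacked the gene. With 2 sections a group, p-values measure only the spread between these sections.

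An erythroblastic island is a macrophage with erythroblasts attached around it, and such islands are where red cells mature in fetal liver, bone marrow and the splenic red pulp. The macrophage holds the erythroblasts by adhesion proteins, takes up the nuclei they expel, recycles iron and secretes growth factors. The C1q genes, C1qa, C1qb and C1qc, encode the subunits of a complement protein that tissue macrophages make themselves.

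Of the 10 genes, 7 matched a RefSeq promoter (GRCm38.p6), and Vcam1, Adgre1 and Maf did not. The sequences of Cd5l and Fcna are shown because these genes differed most between the red and white pulp of the spleen, and because among the matched genes their windows alone held the half-site of MAF, itself one of the 10 genes. Both cover the 250 bases before the transcription start, written 5′ to 3′ on the gene's strand, and capitals mark the half-site TGCTGA on either strand. The window of Cd5l lies at chr3:87357631-87357880 on the plus strand and that of Fcna at chr2:25627975-25628224 on the minus strand.
Cd5l: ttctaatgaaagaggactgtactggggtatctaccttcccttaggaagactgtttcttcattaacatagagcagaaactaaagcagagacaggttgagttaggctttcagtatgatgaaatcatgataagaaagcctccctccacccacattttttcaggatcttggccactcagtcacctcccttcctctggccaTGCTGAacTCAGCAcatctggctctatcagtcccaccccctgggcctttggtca
Fcna: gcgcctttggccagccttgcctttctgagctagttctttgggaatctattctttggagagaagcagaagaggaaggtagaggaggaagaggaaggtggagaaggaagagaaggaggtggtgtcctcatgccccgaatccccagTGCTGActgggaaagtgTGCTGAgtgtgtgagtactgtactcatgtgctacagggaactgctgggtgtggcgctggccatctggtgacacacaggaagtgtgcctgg
In Cd5l the 2 half-sites face each other 2 bases apart, and this facing arrangement was in 2 of 32851 promoter windows of the same length. In Fcna the 2 half-sites point the same way. A single TGCTGA was in 16.1% of all windows and 2 or more in 1.66%. The Ets core GGAAGT, which the macrophage factor PU.1 binds within longer sites, was in 19.7% of windows and in that of Fcna. The longer PU.1 site GAGGAAGT was in 2.44% of windows, the GATA site AGATAA in 9.99% and a pair of LXR half-sites in 0.0152%. No matched member held any of these exact letters. Other forms of these sites were not searched, and the Cd5l window holds tgataag, a variant of the GATA letters. These matches are letters in a window and say nothing on whether a factor binds there.

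The tissues were read from fixed lists of cell markers before the members. Total UMIs over in-tissue spots ranged from 449883 in the EDTA-treated marrow to 56182915 in the E14.5 liver of the purchased mice. Only spots with at least 1000 detected genes were used, which left 15 spots in the EDTA-treated marrow and 491 to 2320 in the other sections. C1qa was at most 0.19 CPM (UMIs of a gene scaled to a common total of UMIs over the section's spots) in each knockout section and at least 25.8 CPM in each wild-type section of the cross. The fetal livers numbered 4 held much tissue that was not liver: spots with at least 0.5% of UMIs from the hepatocyte list made up 29.4% of wild-type fetal liver 4 and 62.1% of knockout fetal liver 4, against 94.4% and 96.6% in the livers numbered 2. The stromal list took 0.446% and 0.286% of UMIs in the livers numbered 4, against 0.0998% and 0.130%. Among the spleens, the erythroid list took 8.61% of UMIs in wild-type spleen 1 and 1.09% to 2.56% in the other 3 of the cross, and pancreas genes took 1.66% in knockout spleen 2. The P8 marrow carried 6.46% stromal list UMIs. A spot holds several cells, so fewer macrophages and less RNA per macrophage cannot be told apart, and the assay reads each gene through its own probes, so levels were compared between sections and not between genes.

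Across all sections, spleen held more of 6 members than any fetal liver section (Vcam1, Adgre1, Maf, Nr1h3, Il18 and Fcna), whereas Itga4, Itgb1, Igf1 and Cd5l overlapped between the tissues. These ranges join purchased and cross sections, which were processed as separate sets, and are given without a test. The share of all genes separated in this way was not computed, so these ranges do not set the 6 members apart from other genes. In the cross sections alone, a test called 53.3% of all genes between the tissues in either direction. That is a different measure from separated ranges.

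Vcam1, the adhesion receptor of the macrophage that binds α4β1 integrin on erythroblasts, had 30.3 CPM at the lowest, 58.4 at the median and 143 at the highest of 6 fetal liver sections. In the 5 spleen sections Vcam1 had 185, 234 and 307 CPM at the same points, above every fetal liver. The marrow sections had 50.2 CPM of Vcam1 at P8 and 84.5 at 89 weeks, within the fetal liver range. Itga4, the α4 chain of that integrin, had 69.7 to 188 CPM in fetal livers with a median of 131, and 121 to 241 CPM in spleens with a median of 136. The order of Itga4 did not separate the tissues, and its lowest value of all was 56.0 CPM in the P8 marrow. Itgb1, the β1 chain shared by many integrins, had 141 to 460 CPM in fetal livers and 162 to 217 in spleens, with the highest value in wild-type fetal liver 4, the section with the most stromal UMIs among the fetal livers.

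Adgre1, which encodes F4/80, the surface antigen used to stain mouse macrophages, was scarce in every section. It had 2.65 to 6.94 CPM in fetal livers, 3.78 and 6.88 CPM in P8 and 89-week marrow, and 10.4 to 24.1 CPM in spleens. The spleen values other than wild-type spleen 1 lay between 10.4 and 13.7 CPM, so only 1 spleen stood clear of its neighbours. Maf, the transcription factor c-Maf, had 39.9 to 71.9 CPM in fetal livers and 141 to 209 in spleens. The P8 marrow had 122 CPM of Maf, close to the spleens, and the 89-week marrow 31.5, below every fetal liver. Nr1h3, which encodes the oxysterol receptor LXRα that macrophages use to handle cholesterol, had 7.45 to 25.8 CPM in fetal livers and 53.4 to 97.3 in spleens. The 2 lowest Nr1h3 values of fetal liver, 7.45 and 9.87 CPM, came from the livers numbered 4.

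Il18, an inflammatory cytokine, had 4.29 to 13.2 CPM in fetal livers and 18.5 to 63.4 in spleens. Igf1, a growth factor for erythroid and many other cells, ran from 13.6 CPM in the purchased E14.5 liver to 123 in wild-type fetal liver 4, and from 42.6 to 88.4 CPM in spleens. The 2 highest Igf1 values, 144 CPM in the P8 marrow and 123 in wild-type fetal liver 4, were in the sections with 6.46% and 0.446% stromal list UMIs, the 2 highest shares. Cd5l, a secreted protein of tissue macrophages also called AIM, spread furthest within a tissue: fetal livers had 10.5 to 222 CPM and spleens 89.3 to 310 CPM. The 2 fetal livers below 100 CPM were again those numbered 4, at 10.5 and 20.5 CPM. Fcna, a ficolin that binds sugars on microbes and is made by macrophages, had 21.4 to 133 CPM in fetal livers and 364 to 1147 in spleens. The EDTA-treated marrow gave 14 Fcna counts, 377 CPM with an exact 95% Poisson interval of 206 to 632 that covers counting error only. Its other members had 6 or fewer counts, and Adgre1, Il18 and Cd5l had 0 counts, which allows up to 80.7 CPM (3 counts of the total), so that section places no other member.

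**Figure D1:**
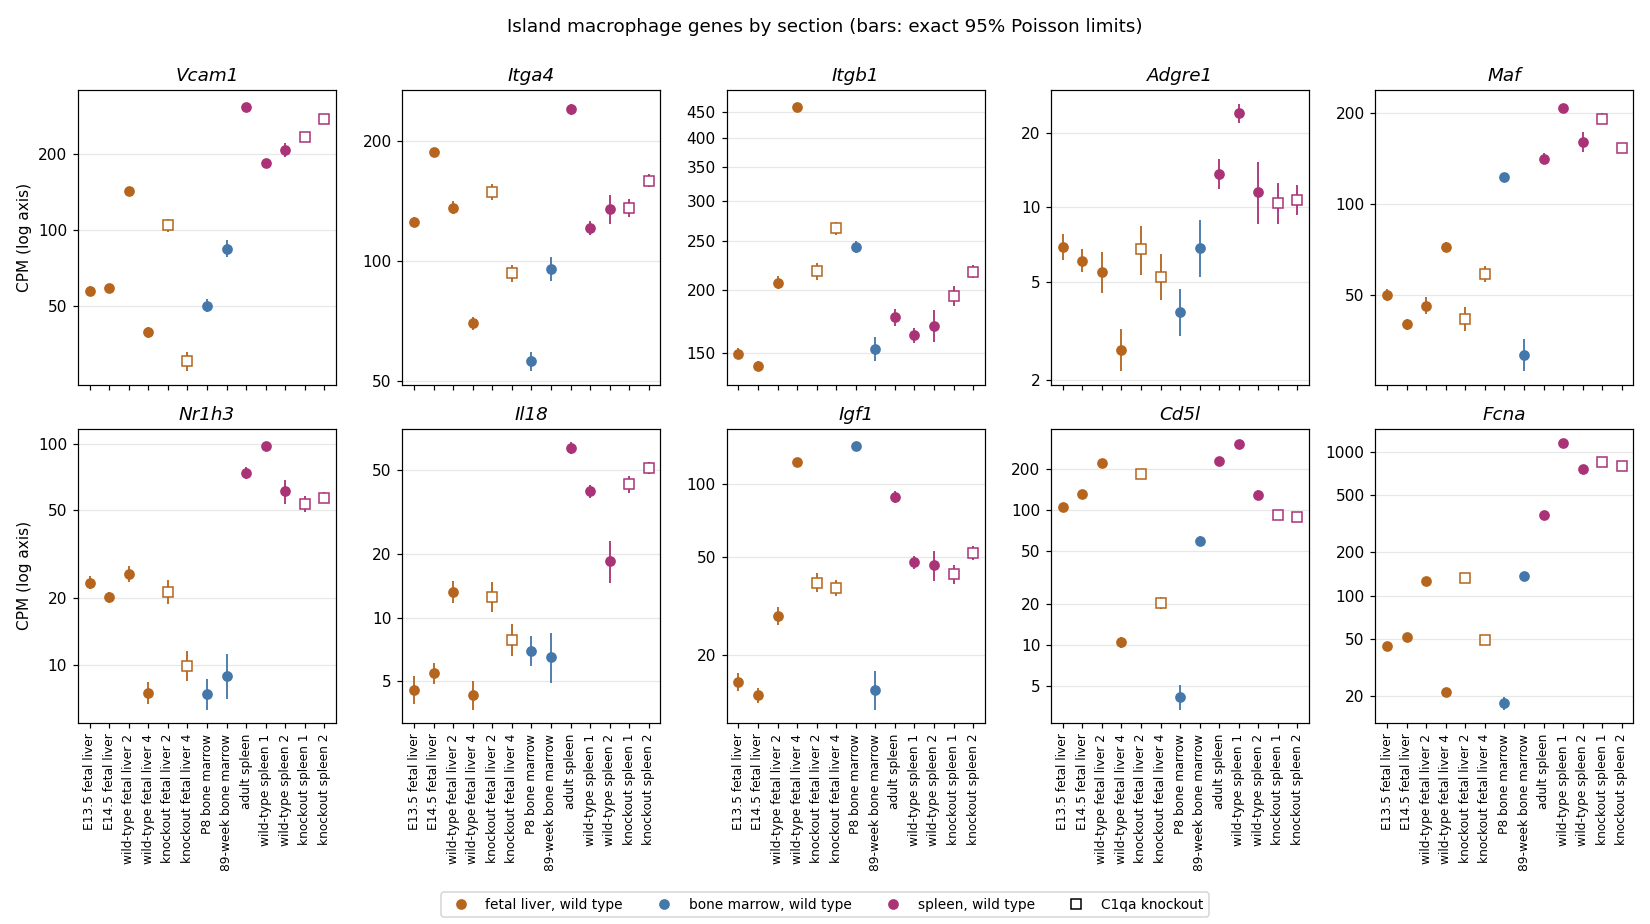
Level of each of the 10 genes in each section, in CPM on a log axis, coloured by tissue, with open squares for C1qa knockouts and bars for exact 95% Poisson limits; the EDTA-treated marrow is left out. The 5 spleen sections lie above the 6 fetal liver sections for Vcam1, Adgre1, Maf, Nr1h3, Il18 and Fcna, and wild-type fetal liver 4 is the lowest liver for Cd5l and Fcna. The share of all genes separated in this way was not computed.

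The purchased sections gave 3 comparisons with 1 section on each side, so their folds have no replicate check, and a gene was counted when it differed by 2-fold or more. Between E13.5 and E14.5 fetal liver, 6.23% of 13763 genes passed 2-fold and none of the 10 members did. The E13.5 over E14.5 ratios ran from 0.665 for Itga4 to 1.25 for Maf. Between P8 and 89-week marrow, 46.3% of genes passed. P8 marrow had 10.0 times the Igf1 and 3.88 times the Maf of 89-week marrow, and 0.0701 times the Cd5l and 0.131 times the Fcna. The remaining 6 members lay between 0.549 for Adgre1 and 1.59 for Itgb1. The P8 section also held cartilage and bone genes (3.29% of UMIs) and muscle genes (0.588%), and the part of these tissues in the ratios was not tested. The paper describes adult marrow that was cryosectioned and parted from bone before paraffin embedding. Preparation may thus differ along with age between these sections, and the 2 cannot be told apart.

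Between purchased adult spleen and E14.5 fetal liver, 58.3% of genes passed 2-fold and 7 members did, all higher in spleen. The ratios were 11.6 for Il18, 7.03 for Fcna, 6.50 for Igf1, 5.18 for Vcam1, 3.65 for Nr1h3, 3.54 for Maf and 2.25 for Adgre1. Cd5l (1.75), Itga4 (1.28) and Itgb1 (1.25) stayed under 2-fold. Most genes were higher in this spleen, and the median log2 ratio over all genes was 0.83 in this pair. Without globin genes in the total 6 members passed.

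The same tissues were compared in the cross, with 4 spleens and 4 E14.5 fetal livers, in 1 fit of all 8 sections with edgeR's quasi-likelihood test. The call rule here and below was a Benjamini-Hochberg adjusted p under 0.05 over all genes tested. It called 53.3% of 19180 genes and 3 members. Maf was 41.6 to 71.9 CPM in the cross livers and 153 to 209 in the spleens, a log2 difference of 1.02 (SE 0.205, adjusted p = 0.00565). Fcna was 21.4 to 133 CPM in the livers and 751 to 1147 in the spleens, a log2 difference of 2.41 (SE 0.772, adjusted p = 0.0318), and it missed the threshold without knockout fetal liver 4 (2.03, adjusted p = 0.0709) and without any 1 of the spleens (2.30 to 2.55, 0.0601 to 0.0803). Itgb1 was lower in spleen, with a log2 difference of -1.29 (SE 0.250, adjusted p = 0.00470), and its livers at 206 to 460 CPM overlapped the spleens at 162 to 217.

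For the other 7 members the spread between livers was wide beside the difference. Nr1h3 had a log2 difference of 1.08 (adjusted p = 0.169), Il18 1.06 (0.157), Adgre1 0.63 (0.313) and Vcam1 0.50 (0.546), although each had higher CPM in all 4 spleens than in all 4 livers. The share of all genes with that order was not computed. Igf1 had -0.84 (0.0725), Itga4 -0.59 (0.305) and Cd5l -0.75 (0.569). The fit scales sections by TMM factors, which differ from the totals behind CPM, and Itga4 had 121 to 159 CPM in the spleens and 69.7 to 149 in the livers beside its negative fitted difference. The median log2 difference was 0.56 over the members and 0.10 over all genes tested. With the litter number as a block in the livers, 73.4% of all genes and all 10 members were called, Vcam1 at 1.07, Nr1h3 at 1.51, Il18 at 1.40 and Adgre1 at 0.84, and Cd5l turned to 0.65 (adjusted p = 0.0113). Without wild-type fetal liver 2, 7 members and 50.9% of all genes were called, with Adgre1, Igf1, Il18 and Nr1h3 added. Upper-quartile scaling called 4 members and 52.6% of all genes, and 65.5% of all calls were then higher in spleen, against 50.1%. The litter block takes the difference between litters 2 and 4 out of the spread while the tissues still came from different mice.

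Of 16 other genes of island macrophages from a fixed list, 9 differed between the tissues, 4 higher and 5 lower in spleen, with a median log2 difference of 0.38 over the list. Epor, the erythropoietin receptor, was at -4.08 (adjusted p = 0.00101) and Icam4, an erythroid adhesion protein that binds integrins, at -3.23 (0.00114). Both are also expressed by erythroblasts, and the erythroid list took 4.73% to 20.8% of UMIs in the livers and 1.09% to 8.61% in the spleens. Maea, which links erythroblasts and macrophages, was at -1.09 (0.00245). Cd163, the haemoglobin scavenger receptor, was at 3.00 (0.00197) and Axl, a receptor for dying cells, at 1.04 (0.00484).

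Within the spleen most of the island macrophage genes were higher in the red pulp than in the white pulp. Each spleen's spots were ordered by the share of B and T cell list UMIs minus the share of erythroid list UMIs, both scaled within the section, and the third of spots with the lowest values was called red pulp and the third with the highest values white pulp. No member was part of that order. In 4 spleens with section as a block, 20.04% of 18434 genes differed and 9 of the 10 members did, all 9 higher in red pulp. The median log2 difference was 1.21 over the members and 0.01 over all genes.

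Cd5l differed most. Its red and white pulp levels were 470 and 127 CPM in wild-type spleen 1, 224 and 52.3 in wild-type spleen 2, 185 and 27.3 in knockout spleen 1 and 193 and 21.8 in knockout spleen 2. The 4 red pulp values all lay above the 4 white pulp values, with a log2 difference of 2.60 (SE 0.171, adjusted p = 9.57e-07). Fcna had 1479, 1139, 1428 and 1524 CPM in the red pulp of these spleens and 663, 337, 404 and 328 CPM in the white pulp, without overlap (log2 difference 1.88, SE 0.142, adjusted p = 2.53e-06). Vcam1 had 229, 320, 423 and 485 CPM against 127, 112, 115 and 153, again without overlap (1.61, SE 0.134, adjusted p = 4.99e-06). Maf had 264, 239, 312 and 250 CPM against 136, 86.9, 110 and 107 (1.42, SE 0.1002, adjusted p = 1.58e-06).

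Adgre1 was 14.1 to 32.3 CPM in red and 6.33 to 13.5 in white pulp, a log2 difference of 1.37 (SE 0.163, adjusted p = 9.22e-05). Nr1h3 was 72.1 to 125 CPM against 41.6 to 64.1 (1.05, SE 0.103, adjusted p = 2.01e-05), so neither gene overlapped between the zones. Il18 was 23.9 to 74.6 CPM against 12.02 to 38.9 (1.00, SE 0.119, adjusted p = 9.01e-05), which overlapped between spleens while red exceeded white within all 4. Igf1 was 50.1 to 67.3 CPM against 26.9 to 40.1, without overlap (0.79, SE 0.118, adjusted p = 0.000519). Itgb1 differed less, by 0.37 (SE 0.0977, adjusted p = 0.0179), and was higher in red pulp within all 4 spleens, but missed the threshold without knockout spleen 1 (0.30, adjusted p = 0.143) or 2 (0.37, 0.0770). Itga4 had a log2 difference of 0.05 (SE 0.0973, adjusted p = 0.802), and its red pulp level was below its white pulp level in wild-type spleen 1 (98.6 and 134 CPM) and in knockout spleen 2 (167 and 169 CPM). The purchased adult spleen, which was not in that fit, had red over white ratios of 4.33 for Cd5l, 3.80 for Adgre1, 3.45 for Vcam1, 3.24 for Fcna, 2.70 for Igf1, 2.63 for Maf, 2.30 for Il18, 1.55 for Nr1h3, 1.54 for Itgb1 and 1.03 for Itga4. Without the section block 7 members and 4.68% of all genes were called, and DESeq2 called 8 members and 12.2% of genes.

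Of the 16 other island macrophage genes, 12 differed between the pulps, 11 of them higher in red pulp. Hmox1, which degrades haem, had a log2 difference of 2.60 (adjusted p = 1.26e-07), Slc40a1, the iron exporter ferroportin, 2.31 (3.75e-07), Mertk, a receptor for engulfing cells, 1.88 (4.57e-07), Axl 1.87 (2.59e-07) and Trf, transferrin, 1.42 (2.71e-06). Timd4, a phosphatidylserine receptor, was the 1 gene lower in red pulp, at -0.76. It is named after its value was seen.

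In fetal liver 3 of the members were higher in the spots richest in erythroid genes, and Maf and Itgb1 had fewer CPM there in all 6 livers. Liver spots were ordered by erythroid list UMIs, and the third with the most was set against the third with the least in the 4 cross livers with section as a block. Of 17498 genes 10.7% differed, and 3 members did, all higher in the erythroid-rich spots. Fcna had 138, 72.7, 164 and 80.2 CPM in the rich spots of wild-type livers 2 and 4 and knockout livers 2 and 4, and 119, 16.6, 116 and 35.4 CPM in the poor spots. Rich exceeded poor in all 4 livers, with a log2 difference of 1.16 (SE 0.242, adjusted p = 0.0133). Cd5l had 246, 39.5, 211 and 39.4 CPM against 216, 3.62, 159 and 9.93 (1.25, SE 0.351, adjusted p = 0.0446). The gap was much wider in the livers numbered 4 than in those numbered 2, where it was 1.14-fold in wild-type liver 2. Itga4 had 142, 110, 152 and 142 CPM against 139, 91.2, 154 and 96.2 (0.48, SE 0.105, adjusted p = 0.0162), and in knockout liver 2 it was not higher in rich spots. Its rich over poor CPM ratios ran from 0.990 to 1.47 with a median of 1.12. The fitted difference also rests on TMM scaling, which differs from the totals behind CPM.

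The remaining 7 members did not pass. Igf1 had a log2 difference of -0.95 (adjusted p = 0.0625) and was lower in rich spots in all 4 livers, with 11.5 against 78.4 CPM in wild-type liver 4 at the widest, but was slightly higher in rich spots of the purchased E13.5 (17.3 against 14.9 CPM) and E14.5 livers (14.4 against 13.6). Maf had -0.36 (0.0860), Il18 0.49 (0.105), Nr1h3 0.42 (0.115), Adgre1 0.51 (0.274), Vcam1 0.13 (0.408) and Itgb1 -0.11 (0.314). Vcam1 had fewer CPM in rich than in poor spots in 3 of the 4 livers, all but knockout liver 2, so its sign rested on the TMM scaling of the fit. The median log2 difference was 0.45 over the members and 0.08 over all genes. The stromal list took 0.035% to 0.058% of UMIs in the rich spots and 0.105% to 0.253% in the poor spots, and its part in these differences was not tested. Without knockout fetal liver 4 no member passed (312 genes did, and 2542 had an unadjusted p under 0.05), with Fcna at 1.13 (adjusted p = 0.112), Cd5l at 1.15 (0.205) and Itga4 at 0.41 (0.0950). Without wild-type fetal liver 4, Itga4 was at 0.43 (0.0651), while Fcna (0.81, 0.00852) and Cd5l (0.82, 0.0472) passed, and without wild-type fetal liver 2, 5 members and 15.8% of all genes did, with Igf1 (-1.30) and Maf (-0.52) added. DESeq2 called 2 members and not Cd5l (1.70, adjusted p = 0.102). Of all calls 49.1% were higher in rich spots, and 61.3% with upper-quartile scaling.

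In the purchased livers, which were not in that fit, Cd5l had 131 CPM in rich and 63.4 in poor spots at E13.5, and 147 and 108 at E14.5. Fcna had 48.0 and 35.2 CPM at E13.5, and 54.5 and 49.2 at E14.5. Itga4 had 122 and 126 CPM at E13.5 and 192 and 186 at E14.5, so it was not higher in the rich spots of both. Of the 16 other island macrophage genes, 8 were higher in the rich spots of the cross livers and none lower. These were led by Hmox1 (0.66, adjusted p = 0.00266), Slc40a1 (0.53, 0.00789), Icam4 (0.70, 0.0135), Epor (0.51, 0.0163) and Timd4 (0.81, 0.0178). Epor and Icam4 are also erythroid genes.

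**Figure D2:**
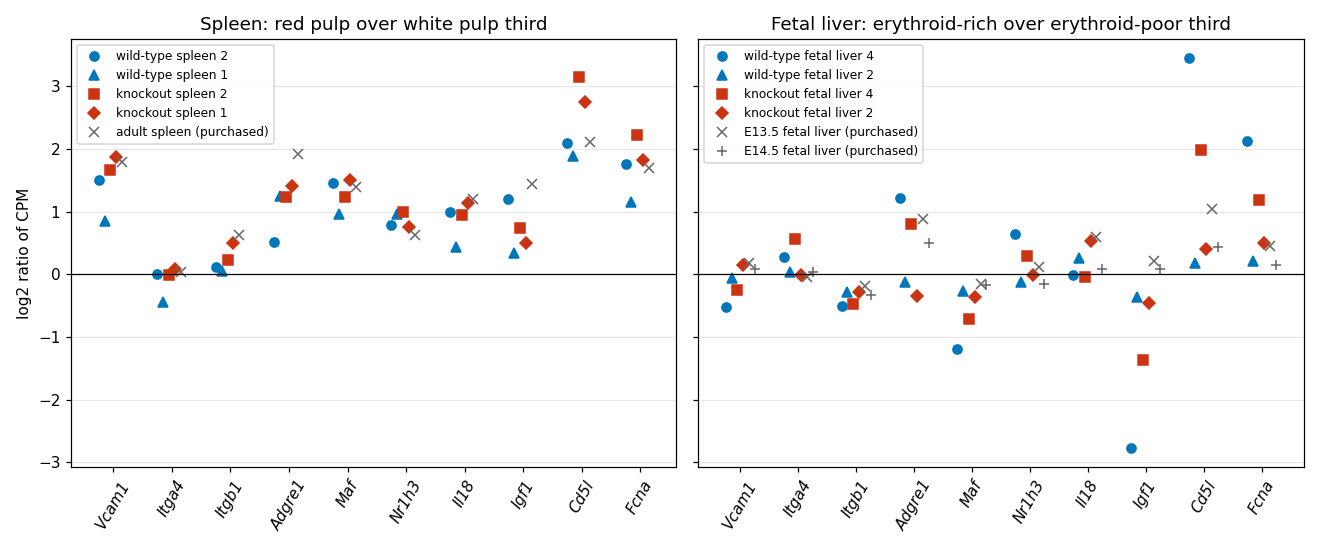
Log2 ratio of each gene's CPM between zones, red over white pulp in the spleens and erythroid-rich over erythroid-poor spots in the fetal livers, with 1 point for each section. Every gene but Itga4 lies above 0 in all 5 spleens, Itgb1 by the least. In the livers Cd5l and Fcna lie above 0, with the highest point, a 10.9-fold ratio, for Cd5l in wild-type fetal liver 4.

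The effect of C1qa loss was read in each tissue from 2 wild-type and 2 knockout sections. In spleen 20.6% of 18895 genes differed between genotypes, and 4 of the 10 members did. Vcam1 had 185 and 207 CPM in the wild-type spleens (1, then 2), against 234 and 274 in the knockout spleens. Both knockout spleens lay above both wild types, and the log2 difference was 0.64 (SE 0.180, adjusted p = 0.0180). Il18 had 39.6 and 18.5 CPM in the wild types against 42.8 and 50.8 in the knockouts, close between spleens numbered 1 and apart between those numbered 2 (0.88, SE 0.241, adjusted p = 0.0156). Itgb1 had 162 and 170 CPM in the wild types against 194 and 217 in the knockouts, without overlap (0.57, SE 0.172, adjusted p = 0.0252).

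Cd5l fell in the knockouts, from 310 and 130 CPM to 92.1 and 89.3 CPM, a log2 difference of -1.03 (SE 0.256, adjusted p = 0.00899). The genotypes did not overlap, and wild-type spleen 1, the spleen with 8.61% erythroid list UMIs, was far above the other 3. Without wild-type spleen 1 the log2 difference of Cd5l was -0.26 (adjusted p = 0.334). In the red pulp spots alone it was -0.73 (adjusted p = 0.0692). Its red pulp levels, given above, did not overlap between genotypes either, although that test did not pass. The share of all genes without overlap between genotypes was not computed. Lack of overlap thus does not set Cd5l, Vcam1 or Itgb1 apart from other genes.

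Itga4, a chain of the Vcam1 ligand, had 121 and 134.9 CPM in the wild types against 136 and 159 in the knockouts (0.48, SE 0.171, adjusted p = 0.0535). Adgre1 was 24.1 and 11.6 CPM against 10.4 and 10.7 (-0.57, SE 0.266, adjusted p = 0.116), a difference carried by wild-type spleen 1. Nr1h3 was 97.3 and 60.8 CPM against 53.4 and 57.1 (-0.27, SE 0.200, adjusted p = 0.299). Igf1 at 0.28 (adjusted p = 0.248), Maf at 0.15 (0.529) and Fcna at 0.05 (0.882) overlapped between genotypes. Of the other C1q genes, C1qb was higher in the knockout spleens (0.83, adjusted p = 0.00759) and C1qc did not pass (0.35, 0.142).

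In the red pulp spots alone 23.3% of 18101 genes differed, 65.4% of them higher in the knockouts, and 4 members did. Vcam1 (0.93, adjusted p = 0.00811), Il18 (1.09, 0.00490), Itgb1 (0.74, 0.0162) and Itga4 (0.65, 0.0329) were higher in the knockouts. Neutrophil genes took at least 0.0527% of UMIs in the wild-type spleens and at most 0.0119% in the knockouts, and the macrophage list took 0.0874% and 0.0919% against 0.0873% and 0.0998%. That list includes C1qb and Cd163, which were themselves called higher in the knockout spleens. Erythroid, neutrophil and pancreas shares differed with genotype or between single spleens, and their part in the differences was not tested.

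The calls in spleen depended on single sections and on scaling. Without knockout spleen 2 no member passed, with Vcam1 at 0.42 (adjusted p = 0.435), Il18 at 0.66 (0.290), Itgb1 at 0.39 (0.459) and Cd5l at -1.11 (0.171), and 240 genes passed in all. Without wild-type spleen 2, 7 members and 19.7% of all genes passed, with Itga4, Adgre1 and Nr1h3 added. Thinned sums called 3 members, without Il18 (0.85, adjusted p = 0.0656), and 12.3% of genes. DESeq2 called 2 members, Vcam1 and Itgb1, and 13.7% of genes, and a fit that shared its spread with the fetal livers called no gene, with 1373 at an unadjusted p under 0.05. Upper-quartile scaling moved the median log2 difference of all genes from -0.08 to -0.37 and the share of calls that were higher in knockouts from 67.0% to 21.4%. In DESeq2 that share was 85.8%. Under that scaling Il18 (0.57) and Cd5l (-1.33) stayed called, Adgre1 (-0.87) and Nr1h3 (-0.58) became called, and Vcam1 and Itgb1 were no longer called.

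Of the 16 other island macrophage genes, 6 differed between the spleen genotypes, 4 higher and 2 lower in the knockouts. Itgav, an integrin chain that binds Icam4, had a log2 difference of 1.05 (adjusted p = 0.000550), Maea 0.81 (0.00386) and Cd163 0.72 (0.0170). The 2 lower genes were Epor at -1.32 (0.00159) and Icam4 at -1.14 (0.00301), which erythroblasts also express. The list's median was -0.02, beside -0.08 over all genes and 0.21 over the 10 members.

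In fetal liver no gene of 18986 passed between genotypes (0% called, edgeR), 138 had an unadjusted p under 0.05 and DESeq2 called 15. No member was called by either. For several members sections of 1 genotype differed more than the genotypes did. Vcam1 was 143 and 39.4 CPM in wild-type livers 2 and 4 against 104 and 30.3 CPM in their knockout littermates. The log2 difference of Vcam1 was -0.62 with an SE of 1.07. Cd5l was 222 and 10.5 CPM against 186 and 20.5 (-0.38, SE 1.60), and Igf1 28.8 and 123 CPM against 39.5 and 37.5 (-0.87, SE 0.585). Each of these ordered the livers by number before genotype, or set wild-type liver 4 apart.

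The littermates deviated together, so the litter number was also used as a block. That fit called 157 genes, 0.827% of those tested, and no member. Vcam1 was lower in the knockout of each litter, with a log2 difference of -0.64 (SE 0.276, adjusted p = 0.568). Igf1 had -0.86 (SE 0.298, adjusted p = 0.238), Itgb1 -0.58 (adjusted p = 0.836), Fcna 0.41 and Cd5l 0.12. Over liver spots alone, Igf1 was 22.3 and 35.9 CPM in the wild types and 28.7 and 21.3 in the knockouts, beside 123 CPM over the whole of wild-type liver 4. Cd5l over liver spots was 230 and 22.9 CPM against 191 and 26.7, still set by the number of the liver. Without wild-type fetal liver 2, Cd5l had a log2 difference of 3.96 and passed, so its direction depended on that section.

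Whether the genotype difference itself differed between spleen and fetal liver was tested as an interaction. No gene passed (0% of 19180; 2018 at an unadjusted p under 0.05, and 7 by DESeq2), no member among them. The interaction was 1.23 for Vcam1 (adjusted p = 0.684) and 1.12 for Itgb1 (0.454) on the log2 scale, positive where the knockout difference was more positive in spleen. With the replicate number as a block 1131 genes (5.90%) passed and Vcam1 did (1.27, adjusted p = 0.0149). The same gene passed with litter as a block in the livers alone (1.28, adjusted p = 0.0188).

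**Figure D3:**
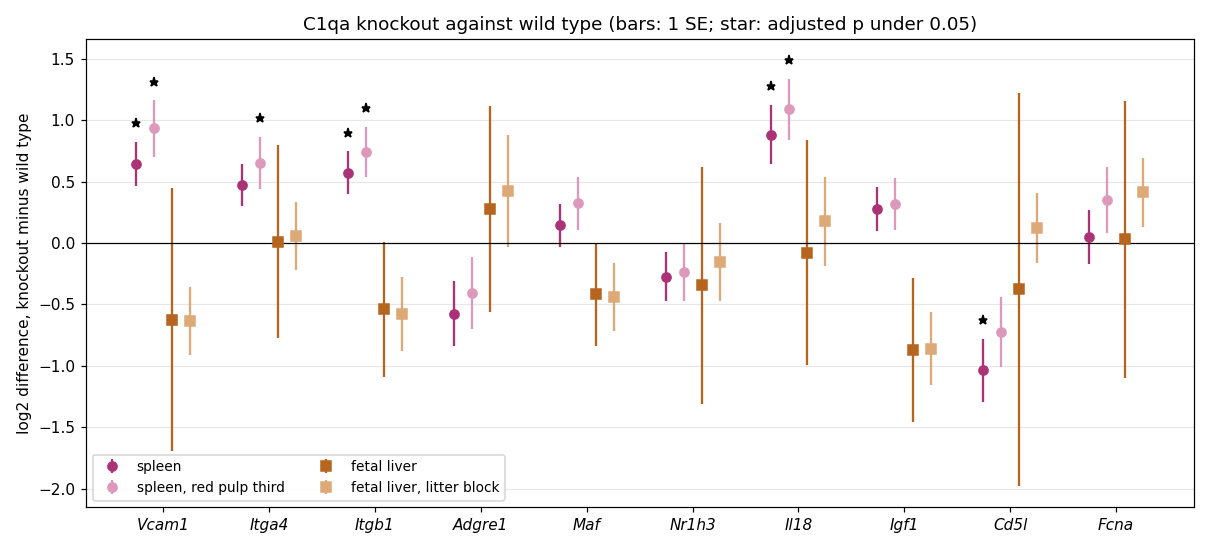
Log2 difference between C1qa knockout and wild type for each gene, in spleen, in the red pulp spots of spleen, and in fetal liver without and with the litter block; bars are 1 SE and stars mark an adjusted p under 0.05. In spleen Vcam1, Il18 and Itgb1 lie above 0 and Cd5l below 0 with a star, and in fetal liver the standard errors reach 1.60 for Cd5l without the block.

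Within sections, the members were compared with C1qc, a C1q gene that the knockout leaves in place, by Pearson's r over log-scaled spot values. These r are descriptions, since spots of 1 section share the library, its depth and its layout. Over 13 sections 129 pairs of member and section had enough spots with the gene, and in 59 of them r was 0.1 or more. Across all genes 0.232% to 7.61% reached that r in a section, and the median r of all genes lay between -0.03 and 0.02.

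Cd5l and Fcna had the highest r in both purchased livers and were among the highest in the spleens. For Cd5l r was 0.47 in E13.5 liver, 0.36 in purchased E14.5 liver, 0.44 in adult spleen, 0.39 and 0.13 in the spleens of wild types 1 and 2, and 0.35 in both knockout spleens. For Fcna r was 0.42, 0.27 and 0.40 in the same purchased sections, 0.40 and 0.18 for these wild types, and 0.34 and 0.35 for the knockouts. In the cross livers both were lower, at 0.06 to 0.18 for Cd5l and 0.08 to 0.16 for Fcna. Vcam1 and Maf followed C1qc in spleen, with medians of 0.36 and 0.28 over 5 spleens, and less in fetal liver, with medians of 0.07 and 0.09 over 6. Wild-type spleen 2 had the lowest r for each of these 4 genes among the spleens and the lowest median depth, 2294 UMIs a spot.

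Nr1h3 and Il18 had a median r of 0.16 and 0.15 in spleen, and 0.03 and 0.05 in fetal liver. Adgre1 had 0.10 over the 4 spleens with a value and reached 0.21 in E13.5 liver. Igf1 reached 0.30 in E13.5 liver and 0.25 in wild-type fetal liver 4, and was near 0 in the livers numbered 2. Itgb1 stayed between -0.09 and 0.21. Itga4 stayed between -0.04 and 0.14, with a spleen median of 0.02.

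The count of pairs fell most in 3 other settings. It changed little without the log (56 of 129 pairs) and over liver spots (20 of 58 pairs, against 21 of the same pairs over all passing spots). Within the red pulp spots 20 of 48 pairs had r of 0.1 or more, against 32 of the same pairs over whole spleens, and 1.86% to 13.9% of all genes reached that r in the red pulp of a section. With every spot thinned to 2000 UMIs, which leaves out shallower spots, 17 of 85 pairs did, against 43 of the same 85 unthinned, and 0% to 2.02% of all genes. Thinning adds counting noise, which lowers r of any gene. With each spot expressed relative to its adjacent spots 25 of 129 pairs did, and 0% to 7.71% of all genes.

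**Figure D4:**
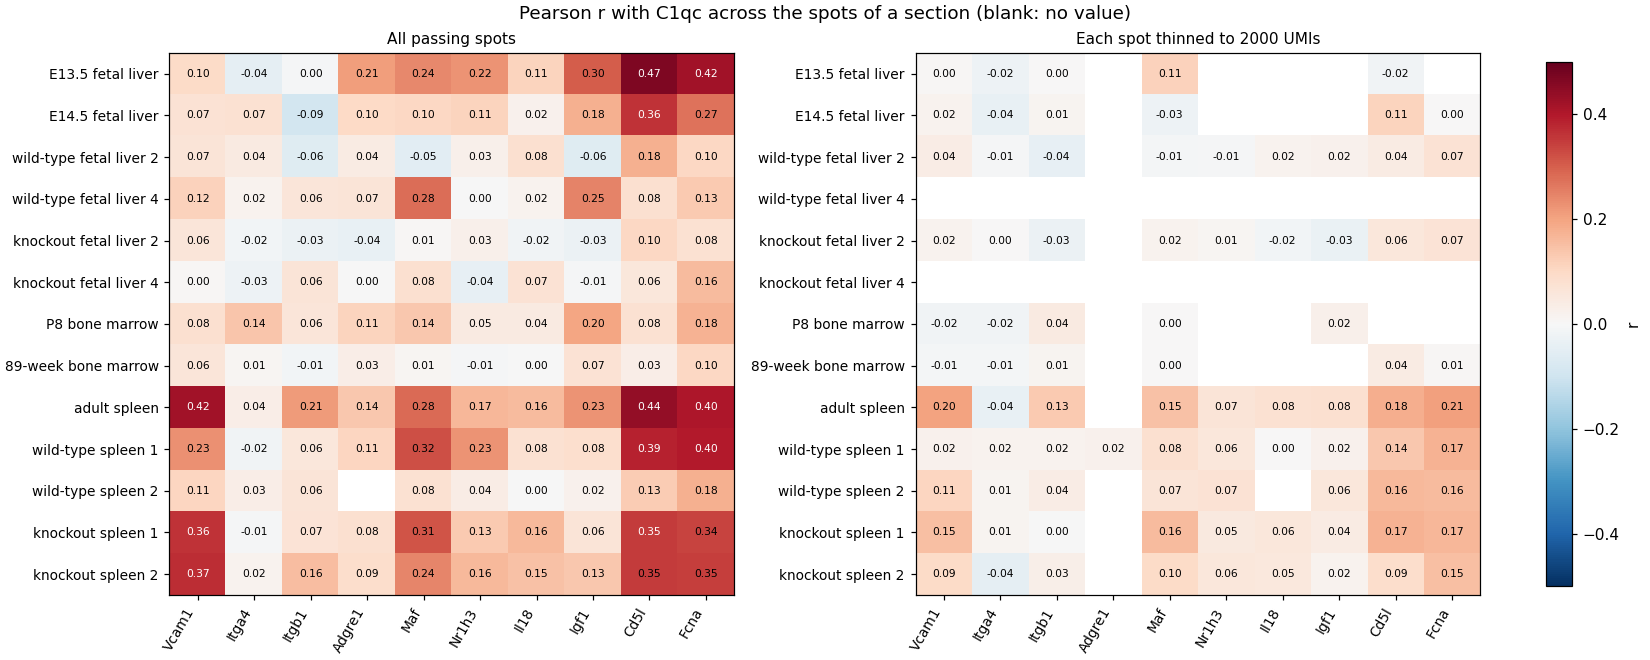
Pearson's r with C1qc over the spots of each section, for each of the 10 genes, as a colour map with a blank where too few spots held the gene. Cd5l, Fcna, Vcam1 and Maf are highest in the spleens and Cd5l and Fcna in the purchased fetal livers, while Itga4 stays between -0.04 and 0.14.

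The members were also set against summed cell type lists in the same spots. The macrophage list was C1qb, C1qc, Csf1r, Cd68, Mrc1, Mertk and Cd163. It includes C1qc, so r with this list is not independent of the r with C1qc above. In the 5 spleens Fcna, Cd5l, Vcam1 and Maf had median r with the erythroid list of 0.62, 0.53, 0.50 and 0.35, and with the macrophage list of 0.53, 0.48, 0.46 and 0.38. Fcna also had 0.38 with the endothelial list, 0.30 with the stromal list and -0.25 with the T cell list, and the other 3 genes had the same signs with each of these lists. In the 6 fetal livers the order was different. Cd5l, Fcna and Itga4 had median r of 0.33, 0.23 and 0.18 with the erythroid list, while Igf1, Itgb1 and Maf had -0.36, -0.27 and -0.15. With the hepatocyte list the first 3 genes had 0.26, 0.22 and 0.15, and the last 3 had -0.38, -0.29 and -0.12. These r took in all passing spots, also those over tissue that was not liver, so they are not particular to erythroid genes. Igf1, Itgb1 and Maf had 0.37, 0.23 and 0.15 with the stromal list, and Cd5l and Fcna -0.31 and -0.19. Over single livers r of Igf1 with the erythroid list ran from -0.47 to 0.02 and with the stromal list from 0.02 to 0.63, while that of Cd5l ran from 0.23 to 0.47 and from -0.51 to -0.17.

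Among the members themselves the closest pair was Cd5l and Fcna, with a median r of 0.528 over the spleens (0.272 to 0.648) and 0.361 over the fetal livers (0.114 to 0.615). In spleen Vcam1 and Fcna had 0.383, Maf and Fcna 0.366, and Vcam1 and Cd5l 0.364. Outside the members, the gene with the highest median r over the sections with at least 200 spots was Hmox1 for Cd5l (0.403), Fcna (0.434) and Nr1h3 (0.164), all over 13 sections and 7970 genes. It was Slc40a1 for Il18 (0.106), the adult β-globin gene Hbb-bt for Vcam1 (0.193), Tns3 for Maf (0.227), Timp2 for Igf1 (0.171), the actin crosslinker gene Flna for Itgb1 (0.156) and the ferritin chain gene Fth1 for Itga4 (0.123). For Adgre1 it was Fcer1g, an Fc receptor chain, at 0.0875 over 12 sections.

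**Figure D5:**
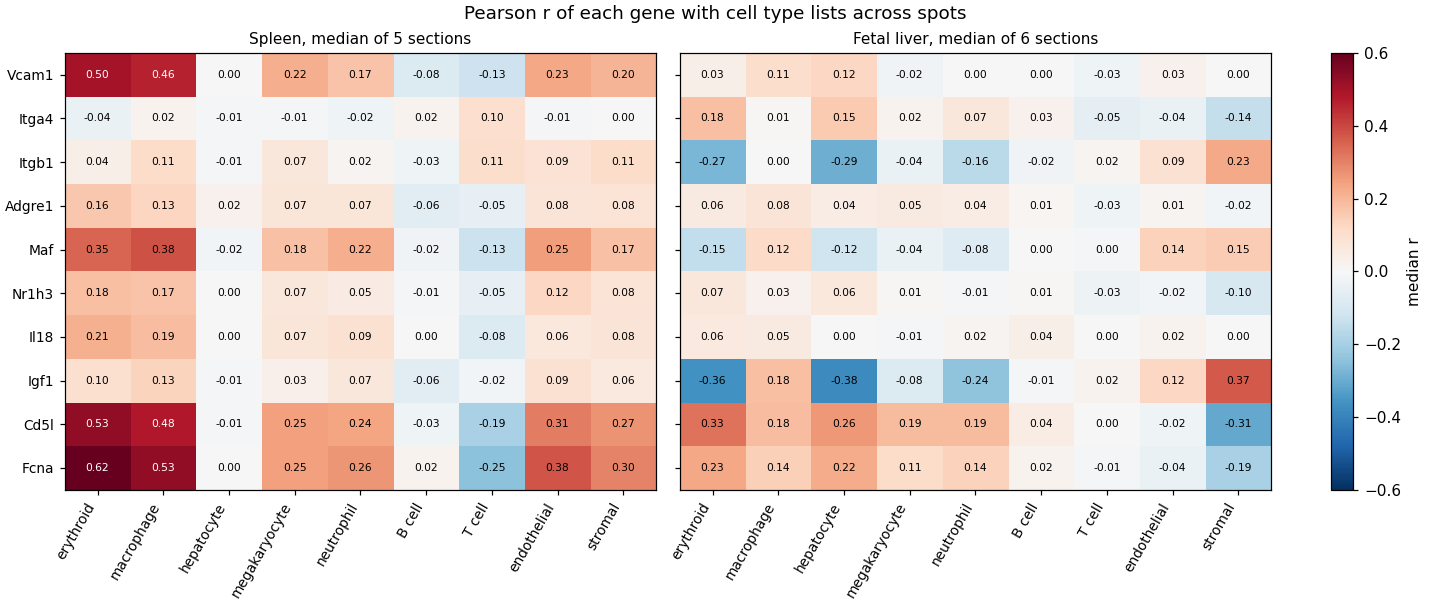
Median Pearson's r over sections between each of the 10 genes and each cell type list, for 5 spleens and 6 fetal livers, as a colour map. In spleen Fcna reaches 0.62 with the erythroid list and 0.53 with the macrophage list. In fetal liver Igf1 lies at 0.37 with the stromal list, -0.36 with the erythroid list and -0.38 with the hepatocyte list.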

How the data were processed

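Visium FFPE gene expression was measured in 14 sections. The deposited matrices hold UMI counts per spot and gene, made by the authors with Space Ranger on mm10, and the deposited position tables (unit other) mark the spots over tissue. No column was of unknown sample. Counts of in-tissue spots with at least 1000 genes were summed per section, and CPM was computed from these sums. A spot table of log(count per 6000 UMIs + 1) gave Pearson's r, for genes in at least 50 spots. No doublet caller was run.

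Differences were tested over sections with the edgeR 4.0.16 quasi-likelihood test (TMM, filterByExpr, limma 3.58.1, R 4.3.3) and Benjamini-Hochberg adjustment over all genes tested. Fetal livers and spleens were fitted apart for genotype and together for tissue and interaction. Zones were fitted with section as a block. DESeq2 1.42.0, upper-quartile factors, other spot sets, thinned sums, blocks and leaving out each section were alternatives. The red pulp spots, the erythroid-rich spots and the block combined with a spot set or used in the livers alone were added after seeing the data. Purchased and cross sections were never tested against each other. Code was tested on simulated counts.

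The genes and lists were chosen with earlier results of these data known. Named were the 10 members, the C1q genes, up to 5 of the other island macrophage genes with the lowest adjusted p, and the gene closest to each member over spots. Sections with the same number deviated together in fetal liver (r = 0.697 of deviations from the group means over 19278 genes), where a number marks littermates, and hardly in spleen (r = 0.0566). Replicate sections differed by 22.1 to 672 times the sampling noise (chi-square per degree of freedom), so none was a repeat deposit. Intervals cover counting error only.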

Additional observations from a re-analysis of the deposited data

Results flagged for a closer look

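Among the 4 spleens of the cross, Adgre1 in wild-type spleen 1 stood far from the others, at 24.1 CPM against 10.4 to 11.6 CPM. Its gap to the nearest spleen was 0.869 of the whole range of log2 CPM, over Dixon's 95% critical value for 4 samples. On CPM itself, a scale added after seeing the data, the ratio was 0.912, and Nr1h3 in wild-type spleen 1 (97.3 CPM, ratio 0.830) and Igf1 in wild-type fetal liver 4 (123 CPM, ratio 0.887) also passed. Chance alone gives such a value in about 1 group in 20, and each of the 10 members was checked in both tissues and between zones. Wild-type spleen 1 had the most erythroid list UMIs (8.61%), and their part in these values was not tested.

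The matrices of the purchased sections also hold spots outside the tissue, which no comparison used. Of all UMIs of the 10 genes, 27.1% were in such spots in E14.5 fetal liver, 26.1% in E13.5 fetal liver, 32.7% in the P8 marrow, 34.4% in the adult spleen, 50.4% in marrow at 89 weeks and 10.2% in marrow treated with EDTA. The share over all genes was not computed, so these values do not set the 10 genes apart from other genes.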

How the results depend on the processing

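Values here are log2 differences or counts of the 10 members called, and where no cause is given the cause was not tested. Fits of whole sections rest on 2 sections a group, the fetal livers numbered 4 hold tissue that is not liver, wild-type spleen 2 and the EDTA-treated marrow are shallow, and a lone section left in a group was assumed to vary like the others. In spleen, DESeq2 called 2 members, thinned sums 3, the joint fit of 8 sections 0 and leaving out 1 section 0 to 7. In spleen against fetal liver, the replicate block called 9, the litter block in the livers alone 10, the block over liver spots and spots without pancreas 8, and leaving out 1 section 2 to 7. Between tissues these 3 blocked fits called 70.6%, 73.4% and 71.7% of all genes, so their member counts lie near the share over all genes. For the interaction they called 1, 1 and 2 members, beside 5.90%, 7.35% and 10.9% of all genes. In fetal liver, leaving out 1 section called 0 to 1. For erythroid-rich liver spots, DESeq2 called 2, no block 0 and leaving out 1 section 0 to 5. The spot r with C1qc reached the threshold in 25 pairs relative to adjacent spots, 17 when thinned and 20 in red pulp alone, the last 2 over fewer pairs.

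The numbers of the spleens do not pair mice in the labels, and deviations of same-numbered spleens hardly correlated. With that replicate block 5 members were called in spleen, Itga4 (0.46) being added, and 4968 genes. Over all genes, counts that moved by over 1.5 times were, in spleen, 2239 with thinned sums and 240 to 4972 without 1 section; in fetal liver, 157 with the litter block, 15 with DESeq2, 1 over liver spots, 27 over liver spots and 45 over erythroid-rich spots with the block, and 0 to 109 without 1 section; for the interaction, 1131, 1409 and 2086 in the 3 blocked fits, 7 with DESeq2 and 0 to 2 without 1 section; for red pulp, 2364 with DESeq2, 844 without the block and 2316 to 3308 without 1 section; for rich spots, 1159 with DESeq2, 0 without the block (1024 at an unadjusted p under 0.05) and 312 to 2619 without 1 section; and between tissues, 5589 to 12043 without 1 section. Upper-quartile scaling put the median of all genes at 0.22 in fetal liver, -0.37 in spleen, 0.50 between tissues and -0.49 for the interaction.

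Signs turned mostly where the difference was small. In fetal liver, Il18 was at 0.0098 over erythroid-rich spots, 0.14 there with the block, 0.18 with the block, 0.14 over liver spots with the block and 0.11 with upper-quartile scaling. Igf1 was at 0.18 over erythroid-rich spots and 0.15 there with the block, Itga4 at -0.089 over liver spots and -0.13 there with the block, Cd5l at 0.12 with the block and Fcna at -0.034 over liver spots. In spleen, upper-quartile scaling turned Maf (-0.14), Igf1 (-0.023) and Fcna (-0.25). Between tissues, Cd5l turned to 0.62 with the block, 0.65 with the block in the livers alone and 0.17 with the block over liver spots and spots without pancreas, where Igf1 was at 0.0095. For the interaction, Nr1h3 was at -0.074 and -0.11 in the first 2 blocked fits, -0.017 with thinned sums and -0.38 with upper-quartile scaling, Itga4 at -0.0036 with that scaling, and Fcna at 0.042 with DESeq2, 0.25 over tissue spots and 0.19 there with the block. In red pulp, Itga4 was at -0.014 with DESeq2.

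Leaving out 1 section turned more. In fetal liver the ranges were -2.61 to 1.33 for Vcam1, -0.56 to 1.53 for Adgre1, -1.76 to 1.54 for Nr1h3, -1.15 to 1.66 for Il18, -1.07 to 1.22 for Itga4, -3.64 to 3.96 for Cd5l and -1.67 to 2.62 for Fcna, the ends without knockout or wild-type liver 2. In spleen they were -0.93 to 0.13 for Adgre1, -0.036 to 0.34 for Maf, -0.56 to 0.12 for Nr1h3 and -0.24 to 0.38 for Fcna, and between tissues -1.22 to 1.39 for Cd5l. For the interaction they were -0.65 to 3.23 for Vcam1, -1.996 to 0.016 for Adgre1, -1.75 to 1.47 for Nr1h3, -0.67 to 2.06 for Il18, -0.71 to 1.52 for Itga4, -4.94 to 2.58 for Cd5l and -2.53 to 1.69 for Fcna. For rich spots, Vcam1 ran from -0.039 to 0.21. Every other setting tried kept the direction of each member's difference.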
